A study of Mus musculus with 16 samples.

Results

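The 10 genes described here encode proteins that bind along microtubules or at their growing plus ends. They are Map1a, Map1b, Map2, Map4, Map6 and Mapt, whose products sit on the microtubule lattice, and Clip1, Clip2, Clasp1 and Clasp2, whose products track or stabilise plus ends. They were chosen by name from the 23337 genes of the count table, with earlier results of these data known. Counts of called members beside all genes are therefore descriptive. The table lists 5 of the 10 genes under the symbols used here and the other 5 under the older symbols Mtap1a, Mtap1b, Mtap2, Mtap4 and Mtap6. RNA was sequenced from the glial lamina, the unmyelinated part of the optic nerve head, of wild-type C57bl/6 mice. The young naïve mice were 13 weeks old and the aged naïve mice 40 weeks old, with no injection in either group. The other mice were also 13 weeks old and had received saline or polystyrene microbeads in the right anterior chamber 4 weeks earlier; microbeads slow the outflow of aqueous humor and raise the intraocular pressure (IOP). Each group had 4 libraries, and each library pooled the right nerve heads of 4 mice, 2 male and 2 female, so that the spread between libraries is a spread between pools.

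Microtubules are polar tubes of alpha- and beta-tubulin that carry transport along the axon and shape the processes of glia. Proteins such as tau, the product of Mapt, and the Map1 and Map2 proteins bind the wall of the tube, space and stabilise it, and are best known from axons and dendrites, whereas Map4 is the widely expressed counterpart in cells other than neurons. Plus-end tracking proteins gather at the growing tip, where CLIP proteins link it to membranes and to dynein and CLASP proteins favour rescue and pausing. The study holds that the RNA of the glial lamina comes mainly from astrocytes, and the cell bodies of the retinal ganglion cells lie in the retina. Neuronal transcripts are therefore scarce in the sample, but they are not limited to those known from axons. All 12 markers of neurons and retinal ganglion cells, Pou4f1 and Rbfox3 included, had counts in every library, with summed levels of 132 to 494 CPM.

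Library totals ranged from 6213789 to 10726122 counts. Levels are in CPM, a gene's share of the TMM-scaled library total expressed as counts in 1000000. Aged library 2 and saline library 4 were left out by the study as outliers, and the results below rest on the other 14 libraries unless all 16 are named. Both libraries stood apart from their groups in Lars2, a mitochondrial leucyl-tRNA synthetase gene. Lars2 lay between 130 and 213 CPM in the young naïve libraries, between 90.4 and 131 in saline libraries 1 to 3, between 8559 and 9305 in aged libraries 1, 3 and 4 and between 4196 and 6016 in the microbead libraries. It stood at 677 CPM in aged library 2 and at 5555 CPM in saline library 4. All 9 astrocyte markers had counts in every library, with summed levels of 7355 to 17230 CPM. All 8 oligodendrocyte markers were present as well at 5200 to 14420 CPM, although the region is unmyelinated. The 9 markers of meningeal fibroblasts and mural cells summed to 8763 to 43280 CPM. Sums of unlike marker lists do not give shares of cells. No marker of any of the lists was at 0, those of photoreceptors and pigment cells included.

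All 10 genes passed the filter on low counts. Clip2 was the scarcest, with 22 to 300 counts per library, and Map4 the most abundant, with 1410 to 5676. Compared per kb of exon, Map4 had the highest level in all 4 groups, at 51.3 ± 2.4 CPM per kb (SD, n = 4) in young naïve nerves. Map1b followed with 25.7 ± 3.8, Mapt with 22.9 ± 1.5, Map6 with 16.8 ± 1.4 and Clip1 with 12.6 ± 0.71 CPM per kb. Of these neighbours, only the ranges of Map1b and Mapt overlapped in the young libraries. Clasp2 stood at 7.85 ± 1.44, Map2 at 6.08 ± 0.63, Map1a at 4.93 ± 0.47 and Clasp1 at 4.92 ± 0.38 CPM per kb. The ranges of Clasp2 and Map2 overlapped, as did those of Map1a and Clasp1. Clip2 was far below the rest at 0.988 ± 0.110 CPM per kb. The first 3 places went to Map4, Map1b and Mapt in every group, whereas Clip1 took place 5 in the other groups and place 8 in aged nerves, where Clasp2 took place 4.

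**Figure D1:**
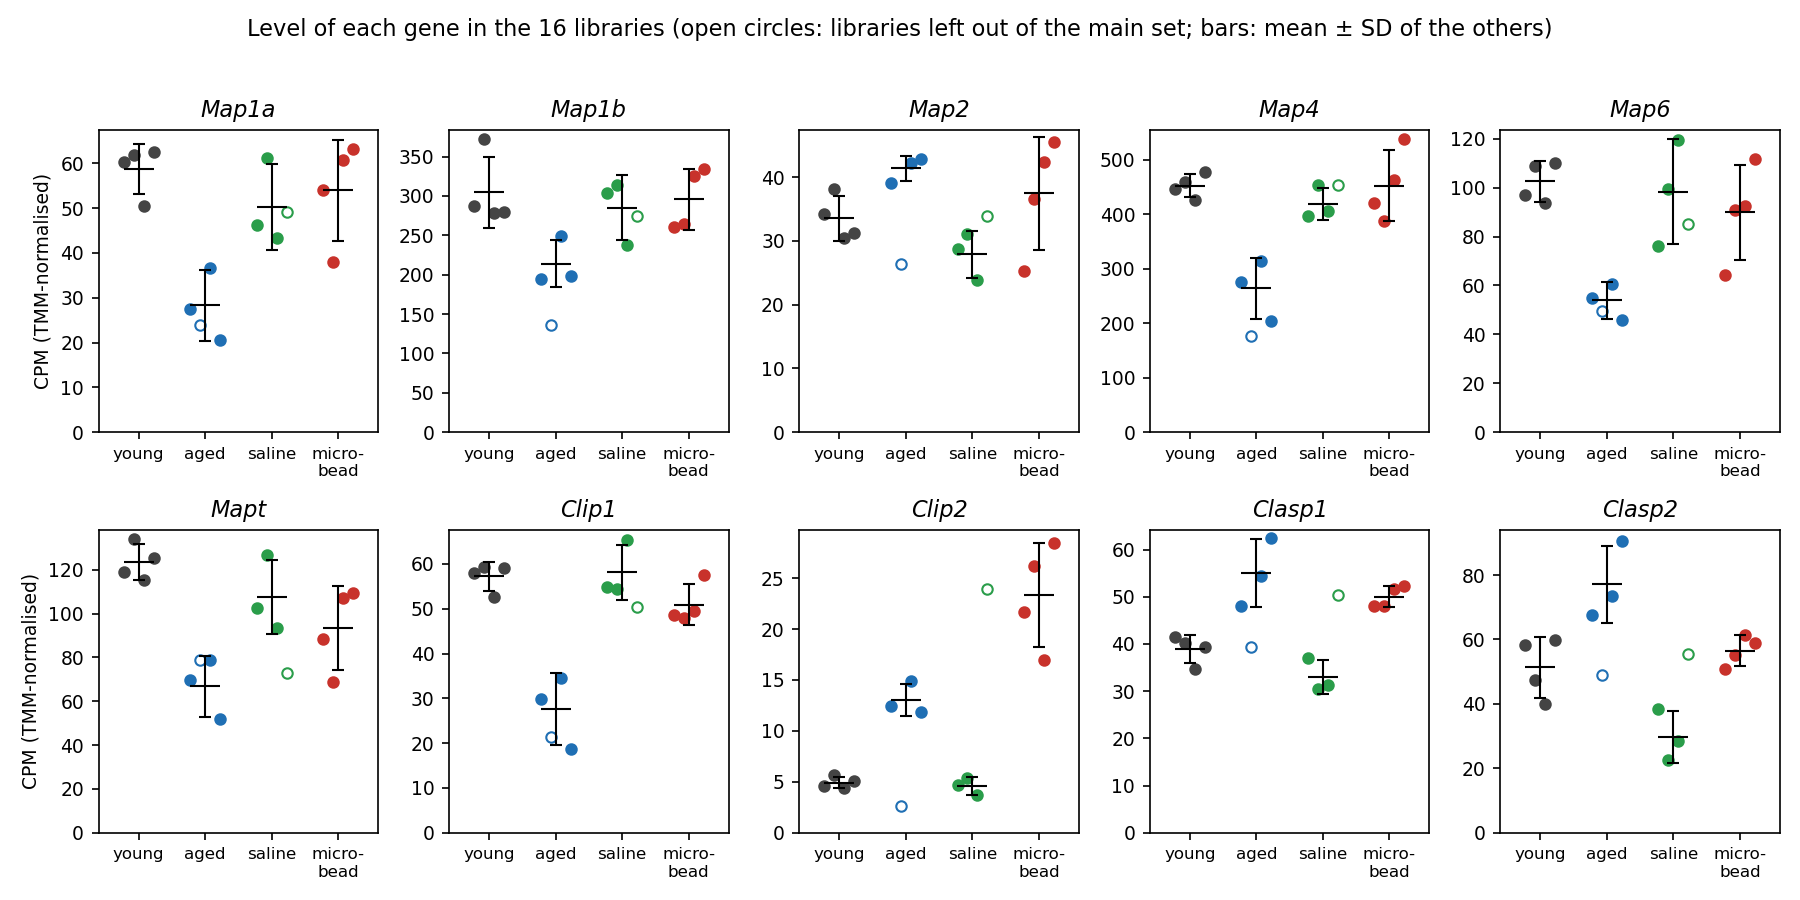
CPM (TMM-normalised, linear axis from 0) of each of the 10 genes in the 16 libraries, by group. Filled circles are the 14 libraries of the main set, open circles the 2 libraries left out, and black bars the mean ± SD of the filled circles. The aged circles lie below the young ones for Map1a, Map1b, Map4, Map6, Mapt and Clip1, and the filled aged and microbead circles lie above the young and saline ones for Clip2.

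Most lattice-binding genes had a smaller share of the counts in aged than in young nerves. The study lists higher RNA concentrations for the aged than for the young preparations, and CPM give shares, not amounts of RNA. Map1a fell 2.07-fold, Map6 1.9-fold, Mapt 1.84-fold and Map4 1.71-fold, and among the plus-end genes Clip1 fell 2.06-fold. Clip2 and Clasp2 went the other way and rose 2.65-fold and 1.5-fold. In all, 7 of the 10 genes were called, that is, changed at least 1.5-fold with p under 0.01 and a Benjamini-Hochberg adjusted p under 0.05 in edgeR's quasi-likelihood test. Of all 14541 genes tested, 26.5% were called in this comparison, 15.1% as higher and 11.4% as lower, beside 2 higher and 5 lower members. The median log2 fold change of the 10 genes was -0.64, against 0.02 over all genes tested. In bulk samples such as these, fewer cells of a type and less RNA per cell cannot be told apart.

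Map4 stabilises microtubules in dividing and non-dividing cells outside neurons. Its level in young libraries 1 to 4 was 446, 459, 427 and 478 CPM, and in aged libraries 1, 3 and 4 it was 276, 314 and 204 CPM. Every young library was above every aged one, and aged library 2, at 177 CPM, was lower still. This is a log2 fold change of -0.77 for Map4 (SE 0.13, edgeR adjusted p = 8.38e-05).

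Mapt encodes tau, the main lattice protein of axons. Young libraries 1 to 4 held 119, 134, 116 and 125 CPM of Mapt, and aged libraries 1, 3 and 4 held 69.8, 79.0 and 51.8 CPM. Aged library 2 had 78.8 CPM, within the range of the other aged libraries, and no aged library reached a young one. Mapt changed by -0.88 on the log2 scale (SE 0.17, edgeR adjusted p = 0.000421).

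Map6, also known as STOP, protects microtubules from cold. Its levels were 97.2, 109, 93.8 and 110.1 CPM in young libraries 1 to 4 and 55.1, 60.8 and 45.9 CPM in aged libraries 1, 3 and 4. The groups were well apart, and aged library 2 (49.7 CPM) lay within the aged range. On the log2 scale Map6 changed by -0.93 (SE 0.17, edgeR adjusted p = 0.000434).

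Map1a and Map1b are paralogs that are cleaved into heavy and light chains, Map1b being the earlier one during neuronal development and Map1a the one of mature neurons. Map1a stood at 60.4, 61.8, 50.5 and 62.4 CPM in young libraries 1 to 4 and at 27.6, 36.6 and 20.7 CPM in aged libraries 1, 3 and 4. Aged library 2, at 24.0 CPM, was again low, and the log2 fold change was -1.05 (SE 0.20, edgeR adjusted p = 0.000456). Map1b went from 287, 373, 279 and 279.8 CPM in young libraries 1 to 4 to 195, 249 and 199 CPM in aged libraries 1, 3 and 4. These did not overlap either, but the log2 fold change of -0.51 (SE 0.13, edgeR adjusted p = 0.00486) was under the fold threshold and Map1b was not called. Aged library 2 was the lowest of all for Map1b at 137 CPM. Its log2 fold change was -0.64 with all 16 libraries and the gene was called, as it was at -0.63 in the 14 libraries without aged library 3. In the fit of all 16 libraries 6 of the 10 genes were called, all lower, beside 19.7% of all genes tested.

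Map2, the main lattice protein of dendrites, did not share this direction. It stood at 34.2, 38.2, 30.5 and 31.3 CPM in young libraries 1 to 4 and at 39.1, 42.2 and 42.8 CPM in aged libraries 1, 3 and 4. These aged libraries were above every young one, while aged library 2 (26.4 CPM) was below every young one. Its log2 fold change was 0.30 with a 95% interval from -0.0012 to 0.60, and Map2 was not called (edgeR adjusted p = 0.115).

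Summed over the 6 lattice genes, the level fell from 127.7 ± 8.5 CPM per kb (SD, n = 4) in young to 79.2 ± 12.8 CPM per kb (n = 3) in aged nerves, and the ranges of 118.5 to 138.3 and 66.5 to 92.0 did not overlap. Map4 made up 40.3 ± 1.8% of the sum in young and 37.7 ± 2.6% in aged nerves. The share of Map2 was 4.75 ± 0.31% in young and 9.64 ± 1.78% in aged nerves. Microbead and saline nerves had sums of 119.7 ± 18.1 (n = 4) and 116.9 ± 10.0 CPM per kb (n = 3).

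**Figure D2:**
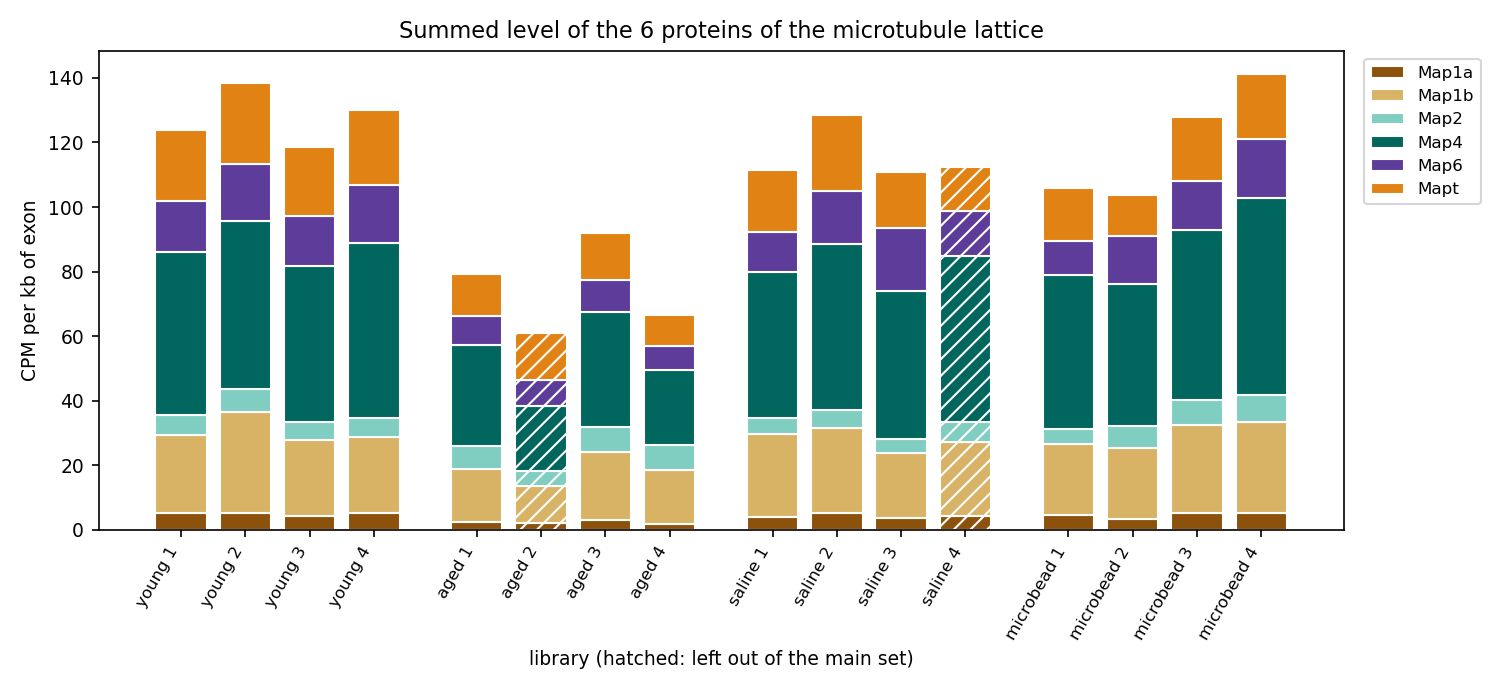
Stacked level, in CPM per kb of exon on a linear axis from 0, of the 6 lattice-binding genes in each of the 16 libraries, with hatching for the 2 libraries left out. The 3 aged libraries of the main set sum to between 66.5 and 92.0 and aged library 2 to 61.1, all below the young range of 118.5 to 138.3.

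Clip1 encodes CLIP-170, the founding plus-end tracking protein, and Clip2 encodes CLIP-115, a relative that is enriched in brain. Clip1 stood at 58.0, 59.4, 52.5 and 59.1 CPM in young libraries 1 to 4 and at 29.9, 34.5 and 18.8 CPM in aged libraries 1, 3 and 4. All aged libraries, library 2 included (21.4 CPM), were far below the young ones, with a log2 fold change of -1.04 (SE 0.15, edgeR adjusted p = 2.02e-05). Clip2 ran against it, from 4.59, 5.65, 4.42 and 5.07 CPM in young libraries 1 to 4 to 12.5, 14.8 and 11.9 CPM in aged libraries 1, 3 and 4. For Clip2 the log2 fold change was 1.40 (SE 0.19, edgeR adjusted p = 1.12e-05). Aged library 2 held only 2.59 CPM of Clip2, the lowest level of all 16 libraries, and in the fit of all 16 libraries, which puts back saline library 4 as well, the log2 fold change was 1.08 and Clip2 was no longer called (adjusted p = 0.157).

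Clip1 and Clip2 lie on the same chromosome and have the fewest exon bases of the 10 genes. Of the summed level of Clip1 and Clip2 per kb, Clip2 made up 7.24 ± 0.52% in young nerves (SD, n = 4), 30.7 ± 5.0% in aged nerves (n = 3), 6.77 ± 1.75% in saline nerves (n = 3) and 29.1 ± 4.1% in microbead nerves (n = 4). Aged library 2 had a share of 9.88% and saline library 4 one of 30.1%, the first near the young and the second near the microbead share. The promoters of the CLIP pair are shown because these genes moved in opposite directions with age. They are the 250 bases before the start of each gene in RefSeq (build GRCm38.p6, both genes on the minus strand), at chr5:123684362-123684611 for Clip1 and chr5:134552435-134552684 for Clip2, with GC boxes, the letters GGGCGG or CCGCCC on either strand, in capitals.
Clip1: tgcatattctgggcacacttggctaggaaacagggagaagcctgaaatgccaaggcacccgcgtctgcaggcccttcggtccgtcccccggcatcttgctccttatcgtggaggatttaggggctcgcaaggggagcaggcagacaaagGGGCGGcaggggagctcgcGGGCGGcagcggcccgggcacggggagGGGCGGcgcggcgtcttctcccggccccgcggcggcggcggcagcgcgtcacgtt
Clip2: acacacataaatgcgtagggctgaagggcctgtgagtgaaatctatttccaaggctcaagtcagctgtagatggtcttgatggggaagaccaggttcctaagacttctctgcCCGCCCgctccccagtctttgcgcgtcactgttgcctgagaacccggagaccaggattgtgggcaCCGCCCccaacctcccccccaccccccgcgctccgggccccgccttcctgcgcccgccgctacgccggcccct
The Clip1 window held 3 GC boxes and 69.6% G or C, and the Clip2 window 2 GC boxes and 63.2% G or C. A GC box was found in 32.7% of all 32851 windows of the same length and in 6 of the 10 windows of the members, which came from 7 of the genes. The median share of G or C was 66.2% in the windows of the members and 52.4% in all windows. The match is a description of the letters in these windows.

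Clasp1 and Clasp2 encode the CLASP proteins, which bind CLIPs and hold microtubules at the cell cortex. Clasp2 stood at 58.3, 47.3, 40.0 and 59.9 CPM in young libraries 1 to 4 and at 67.4, 73.6 and 90.5 CPM in aged libraries 1, 3 and 4. Its log2 fold change of 0.59 (SE 0.16, edgeR adjusted p = 0.0071) was at the edge of the fold threshold, and it was called in 7 of 20 alternative analyses. It lost the call without young library 2 (0.55), young library 3 (0.48) or aged library 4 (0.46). Clasp1 went from 41.6, 40.1, 34.6 and 39.3 CPM in young libraries 1 to 4 to 48.1, 54.4 and 62.5 CPM in aged libraries 1, 3 and 4. Clasp1 had a log2 fold change of 0.50 (SE 0.11, edgeR adjusted p = 0.000842), under the fold threshold, and was called at 0.59 without aged library 1. Aged library 2, at 39.3 CPM of Clasp1 and 49.1 CPM of Clasp2, lay among the young libraries for both genes.

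The young and aged groups did not overlap for any of the 10 genes in the 14 libraries, beside 52.6% of all genes, and for 6 genes in all 16 libraries, beside 27.5%. The calls of Map1a, Map4, Map6, Mapt and Clip1 held in all 20 alternative analyses. Young libraries all carried code 3 in their titles, as did aged libraries 1 to 3, and between the young libraries and aged libraries 1 and 3 the log2 fold changes were -0.87 for Map1a, -0.62 for Map4, -0.82 for Map6, -0.73 for Mapt, -0.83 for Clip1 and 1.47 for Clip2, all called. That of Clasp2 was 0.46 and was not called.

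All 10 genes are long, with 4531 (Clip1) to 11912 (Map1a) exon bases, and are longer than 84.0% to 99.3% of the genes in the table. Genes at least as long as Clip1 had a median log2 fold change of 0.36 between aged and young nerves, and the 1011 tested genes under 1 kb one of -0.41. After removal of each library's trend with gene length, that median for long genes was 0.06. The log2 fold changes were then -1.43 for Map1a, -0.88 for Map1b, -1.13 for Map4, -1.24 for Map6, -1.18 for Mapt and -1.30 for Clip1, all called as lower. Clip2 stayed called at 1.12, so that 7 genes were called beside 20.7% of all genes tested, whereas Clasp2, at 0.27, and Clasp1, at 0.17, were not called.

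**Figure D3:**
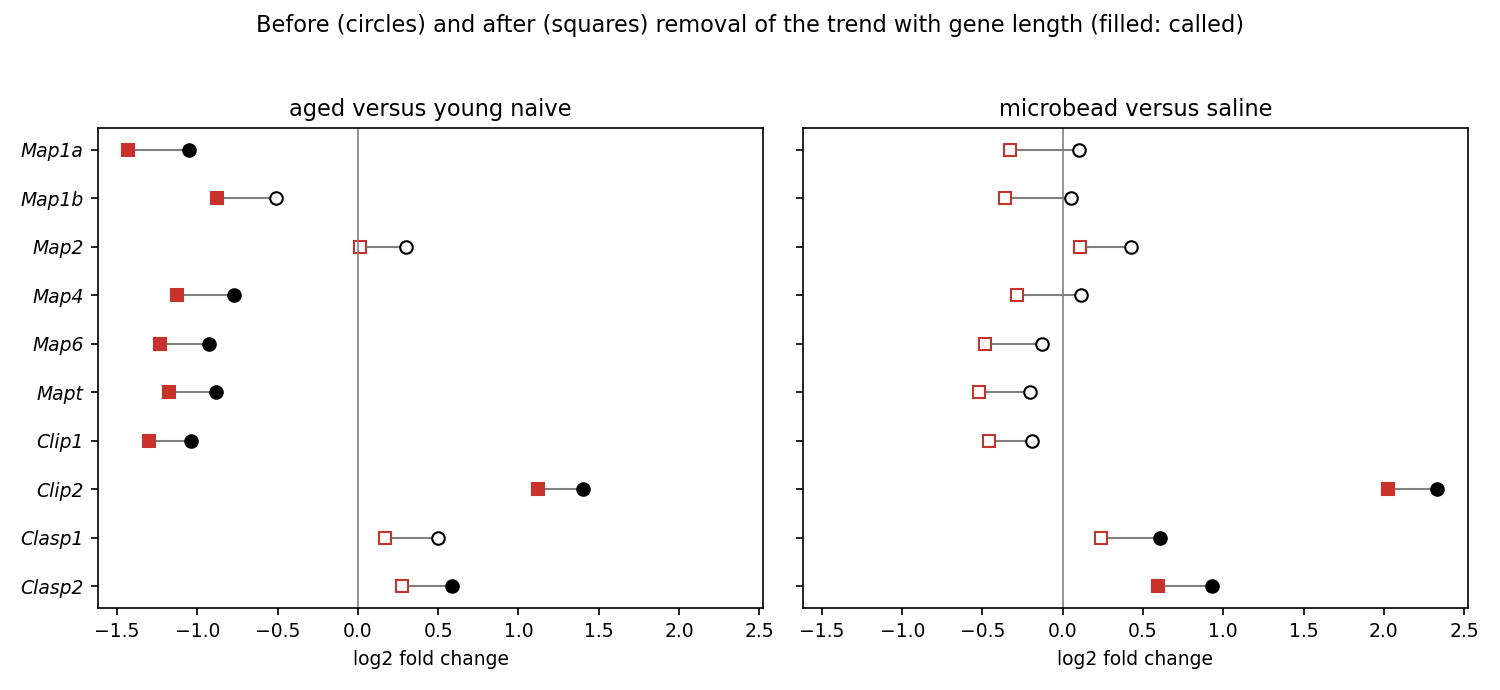
Log2 fold change of the 10 genes between aged and young naïve nerves (left) and between microbead and saline nerves (right), before (circles) and after (squares) removal of the trend with gene length; filled symbols were called. All squares lie to the left of their circles, so that Map1b joins the lower genes with age (-0.51 before, -0.88 after) and Clasp1 loses its call with microbeads (0.60 before, 0.24 after).

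Summed levels of the markers of several cell types were also lower in aged than in young nerves, here over all 16 libraries, while the calls are those of the 14. Beside the counts stand 11.4% of all genes called lower and 15.1% higher. The summed level of the 12 markers of neurons and retinal ganglion cells was 213 to 494 CPM in young and 132 to 186 CPM in aged libraries, and 4 of the 11 tested were called lower with age. The 8 oligodendrocyte markers summed to 10010 to 12220 CPM in young and 5200 to 7306 CPM in aged libraries, with 2 of 8 called lower and 1 higher. The 9 astrocyte markers summed to 11790 to 14260 CPM in young and 7355 to 9140 CPM in aged libraries. Of them 2 were called lower and 1 higher. Single genes carried much of these sums, Mbp at 8048 and Gfap at 5854 CPM on average in young nerves. Microglia and macrophage markers summed to 667 to 804 CPM in young and 454 to 560 CPM in aged libraries. Those of endothelial cells summed to 414 to 478 and 213 to 351 CPM. In each of these lists 2 were called lower and none higher. Sums of meningeal and mural and of photoreceptor and pigment cell markers overlapped, with 3 of 9 and 0 of 9 called lower. Oligodendrocyte precursor sums overlapped as well, at 188 to 249 CPM in young and 141 to 235 CPM in aged libraries. Of these 5 markers 1 was called higher. None of these markers was at 0 in a library. Nefh, the heavy neurofilament chain of axons, went from 54.1 ± 8.9 CPM in young (n = 4) to 10.2 ± 2.9 CPM in aged nerves (n = 3). The part of these shifts in the results for Map1a, Map4, Map6, Mapt and Clip1 was not tested.

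After microbead injection 3 of the 4 plus-end genes changed, and none of the 6 lattice genes passed the test. Compared with saline, Clip2 rose 5.04-fold, Clasp2 1.91-fold and Clasp1 1.52-fold. The 3 called genes were all higher, beside 12.4% of all genes tested, 9.39% as higher and 3.06% as lower. The median log2 fold change was 0.77 for the 4 plus-end genes, 0.08 for the 6 lattice genes and -0.0070 over all genes tested. When saline library 4 and aged library 2 were put back, none of the 10 genes was called (3 had an unadjusted p under 0.05, edgeR), nor was any of the 14417 genes tested (2772 at an unadjusted p under 0.05).

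Clip2 stood at 4.67, 5.43 and 3.68 CPM in saline libraries 1 to 3 and at 21.7, 26.2, 16.9 and 28.4 CPM in microbead libraries 1 to 4. This is a log2 fold change of 2.33 (SE 0.20, edgeR adjusted p = 3.88e-07). Saline library 4, however, had 23.9 CPM, in the midst of the microbead libraries. With all 16 libraries the log2 fold change was 1.30 (adjusted p = 0.217).

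Clasp2 stood at 38.3, 22.5 and 28.5 CPM in saline libraries 1 to 3 and at 50.7, 55.1, 61.5 and 58.9 CPM in microbead libraries 1 to 4. Its log2 fold change was 0.93 (SE 0.17, edgeR adjusted p = 0.000711). The microbead range of Clasp2 overlapped that of the young naïve libraries (40.0 to 59.9 CPM), and saline libraries 1 to 3 lay below both. Clasp1 stood at 37.1, 30.4 and 31.3 CPM in saline libraries 1 to 3 and at 48.0, 48.1, 51.7 and 52.2 CPM in microbead libraries 1 to 4, with a log2 fold change of 0.60 (SE 0.11, edgeR adjusted p = 0.000456). Both CLASP genes were higher in every microbead library than in saline libraries 1 to 3. Saline library 4 held 55.6 CPM of Clasp2 and 50.4 CPM of Clasp1, within the microbead ranges. The log2 fold changes with all 16 libraries, aged library 2 included, were 0.64 for Clasp2 and 0.42 for Clasp1. Clasp1 also lost its call without saline library 2 (0.55) or saline library 3 (0.57). Clip1 ranged from 54.5 to 65.3 CPM in saline libraries 1 to 3 and from 47.9 to 57.6 CPM in microbead libraries, with a log2 fold change of -0.19 (95% interval -0.47 to 0.09).

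None of the lattice genes was called by edgeR or DESeq2, and 1, Map2, had an unadjusted p under 0.05 in each. Map4 stood at 398, 453 and 406 CPM in saline libraries 1 to 3 and at 421, 388, 464 and 538 CPM in microbead libraries 1 to 4, a log2 fold change of 0.11 (95% interval -0.13 to 0.36). Mapt stood at 103, 127 and 93.4 CPM against 88.6, 68.6, 107 and 109.6 CPM, a log2 fold change of -0.20 (95% interval -0.52 to 0.11). The ranges of all 6 lattice genes overlapped between these groups. The log2 fold changes of the others were 0.10 for Map1a, 0.05 for Map1b and -0.13 for Map6, each with an interval that includes 0. Map2 had a log2 fold change of 0.43 (95% interval 0.12 to 0.73) with an edgeR adjusted p = 0.0435, but its unadjusted p of 0.0143 and its fold of 1.34 missed the thresholds, and microbead library 1, at 25.4 CPM, lay among the saline libraries.

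**Figure D4:**
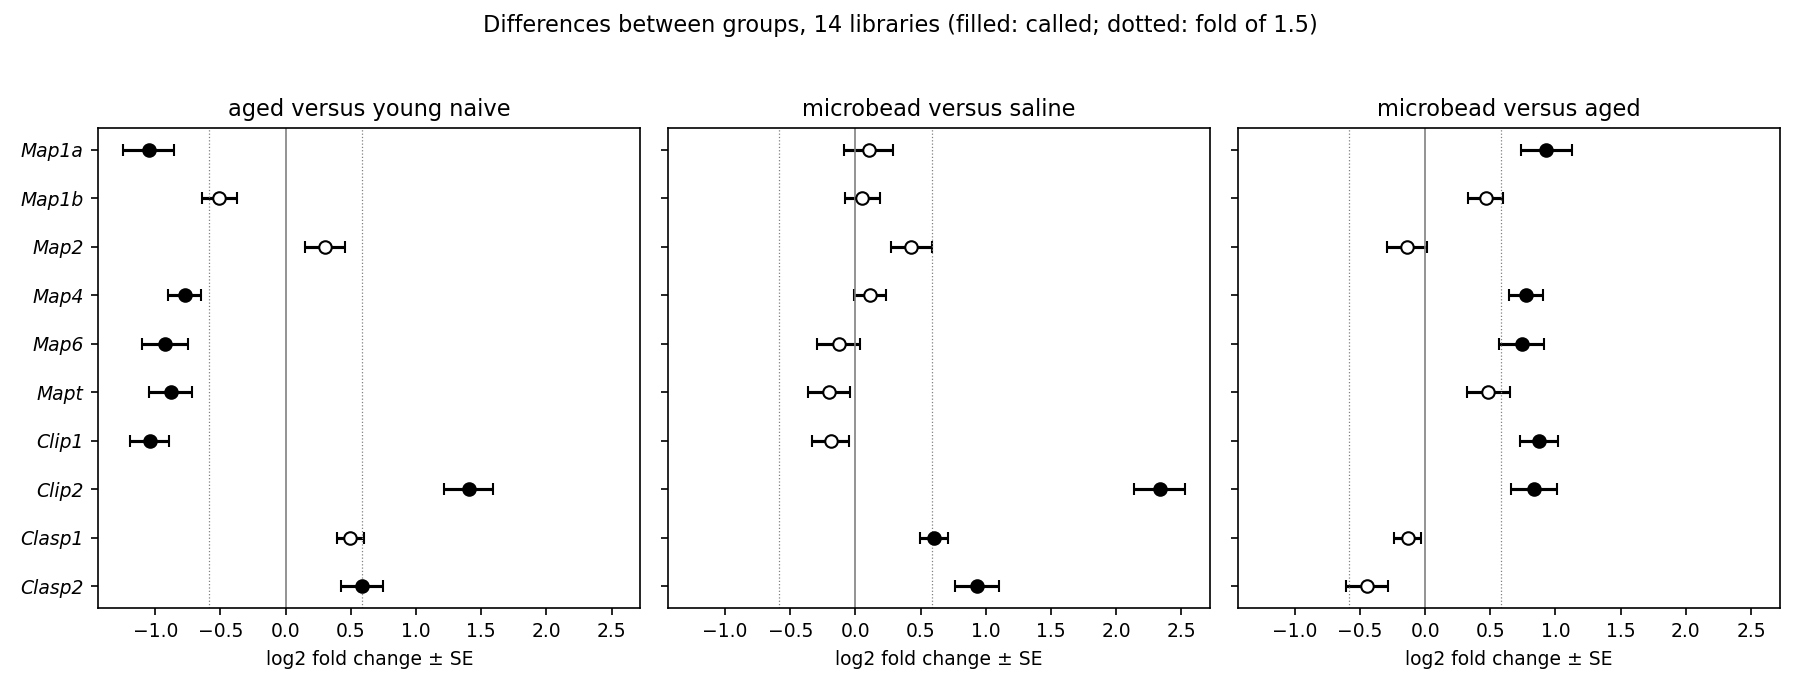
Log2 fold change ± SE of the 10 genes in edgeR's fit of 14 libraries for aged against young naïve, microbead against saline and microbead against aged nerves; filled circles were called and dotted lines mark a fold of 1.5. The lattice genes Map1a, Map4, Map6 and Mapt are called lower with age (-0.77 to -1.05) and lie between -0.20 and 0.11 in the microbead against saline panel, while Clip2 lies at 1.40 and 2.33.

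The groups of the 14 libraries did not overlap for 3 of the 10 genes, beside 37.5% of all genes, and for none in all 16, beside 6.48%. Genes at least as long as Clip1 had a median log2 fold change of 0.36 with microbeads, and after removal of the length trend one of 0.03. In that analysis Clip2 (2.03) and Clasp2 (0.59) stayed called, beside 6.66% of all genes tested, Clasp1 (0.24) did not, and the log2 fold changes of Map1a, Map1b and Map4 turned negative, at -0.33, -0.36 and -0.28. Markers of other cells moved in this comparison as well. The 9 photoreceptor and pigment cell markers summed to 2683 to 9153 CPM in the 4 saline and 1514 to 2865 CPM in the microbead libraries, with a median log2 fold change of -2.55 and 2 called lower, and 2 of the 11 neuron markers tested were called lower, beside 3.06% of all genes. The neuron markers summed to 142 to 328 CPM in saline and 150 to 236 CPM in microbead libraries, which overlap. None of them was at 0, and their part in the results for Clip2, Clasp1 and Clasp2 was not tested. Within code 4, carried by the saline libraries and microbead libraries 1 and 2, and without saline library 4, Clip2 (2.38) and Clasp2 (0.84) were called and Clasp1 (0.55) was not.

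The 16 libraries fell into the same 8 and 8 by their levels of Lars2 and of Clip2. In the 3 aged libraries of the main set, the 4 microbead libraries and saline library 4, Lars2 was at 4196 to 9305 CPM and Clip2 at 11.9 to 28.4 CPM. In the 4 young libraries, saline libraries 1 to 3 and aged library 2, Lars2 was at 90.4 to 677 CPM and Clip2 at 2.59 to 5.65 CPM. Clasp1 parted the libraries in the same way, at 48.0 to 62.5 CPM in the first set and 30.4 to 41.6 CPM in the second. The share of all genes that do so was not counted. Within these sets the levels of Lars2 and Clip2 did not share an order. Aged library 2 had the most Lars2 and the least Clip2 of the low libraries, and the 3 aged libraries of the main set had more Lars2 than any microbead library and less Clip2 than any of them. The part of whatever sets the Lars2 level in the results for Clip2, Clasp1 and Clasp2 was not tested.

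**Figure D5:**
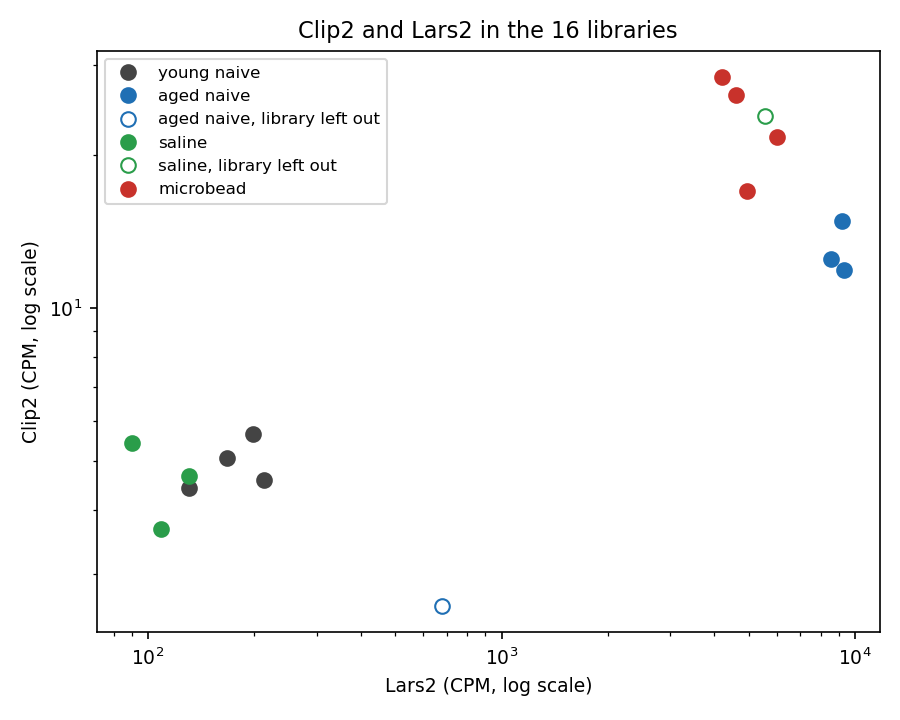
Clip2 against Lars2 in CPM (both axes logarithmic) in the 16 libraries, coloured by group, with open circles for aged library 2 and saline library 4. Saline library 4 (Lars2 5555, Clip2 23.9) lies among the microbead libraries, aged library 2 (Lars2 677, Clip2 2.59) lies apart from the other aged ones, and the aged libraries of the main set have more Lars2 but less Clip2 than the microbead libraries.

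Saline injection alone changed none of the 10 genes by the test, beside 0.00688% of all genes tested, a single gene. By edgeR 2 of the 10 genes had an unadjusted p under 0.05, Clasp1 and Clasp2, and DESeq2 called 1, Clasp2. Clasp2 was lower in saline libraries 1 to 3 (22.5 to 38.3 CPM) than in the young naïve libraries (40.0 to 59.9 CPM), with a log2 fold change of -0.79 (SE 0.17, edgeR adjusted p = 0.127). It was called as lower by edgeR without young library 3 (-0.89) or saline library 1 (-1.01). It was the 1 gene of the 10 whose groups did not overlap in these libraries, beside 11.6% of all genes. Saline library 4, at 55.6 CPM, lay within the young range, and in all 16 libraries no gene of the 10 was free of overlap, beside 4.55% of all genes. The log2 fold change of Clasp1 was -0.24 (95% interval -0.45 to -0.03), and those of the other 8 genes ranged from -0.26 for Map2 to 0.02 for Clip1. Young libraries carry code 3 and saline libraries code 4, so that code and group cannot be told apart here.

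In microbead nerves of young mice 3 of the 6 lattice genes and both CLIP genes were higher than in aged naïve nerves. The groups differ in age and injection, and the library codes were 3 or 4 for aged and 4 or 5 for microbead libraries. These differences cannot be told apart here. Between microbead and saline nerves Map1a, Map4, Map6 and Clip1 were not called, with log2 fold changes of 0.10, 0.11, -0.13 and -0.19. Compared with aged nerves, Map1a was 1.91-fold, Clip1 1.83-fold, Clip2 1.78-fold, Map4 1.71-fold and Map6 1.67-fold higher in microbead nerves. These 5 calls, all higher, stand beside 10.9% of all genes tested, 6.07% as higher and 4.78% as lower. Their log2 fold changes were 0.93 (SE 0.20, edgeR adjusted p = 0.00348) for Map1a, 0.87 (SE 0.15, adjusted p = 0.000509) for Clip1, 0.84 (SE 0.18, adjusted p = 0.0026) for Clip2, 0.77 (SE 0.13, adjusted p = 0.000404) for Map4 and 0.74 (SE 0.17, adjusted p = 0.00612) for Map6. Every microbead library was above every aged library of the main set for these 5 genes and for Map1b, which at 0.47 was not called, and below every one of them for Clasp2, at -0.45 and also not called. Thus 7 genes did not overlap, beside 33.2% of all genes, and 6 in all 16 libraries, beside 20.6%. With all 16 libraries 5 genes were again called, beside 10% of all genes tested, but Map1b (0.60) was called and Clip2 (1.16, adjusted p = 0.144) was not. Without aged library 3 Map1b (0.59) and Mapt (0.62) were called as well, and without microbead library 2 Mapt (0.61). Markers of other cells were also called higher in microbead than in aged nerves, 3 of 9 of astrocytes, 3 of 6 of endothelial cells, 4 of 9 of meningeal fibroblasts and mural cells and 1 of 8 of oligodendrocytes, with median log2 fold changes of 0.38, 0.52, 0.44 and 0.50. Their summed levels in the aged and the microbead libraries were 7355 to 9140 and 13100 to 17230 CPM for astrocytes, 213 to 351 and 376 to 468 for endothelial cells, 8763 to 43280 and 22500 to 32990 for meningeal and mural cells and 5200 to 7306 and 6751 to 11650 for oligodendrocytes. These ranges overlap for meningeal and mural cells and for oligodendrocytes. Also called higher were 2 of the 11 neuron markers tested and 1 of 8 of microglia and macrophages, with medians of 0.06 and 0.27. Neuron markers summed to 132 to 186 CPM in aged and 150 to 236 CPM in microbead libraries, which overlap. Those of microglia and macrophages summed to 454 to 560 and 608 to 729 CPM. No marker of oligodendrocyte precursors, photoreceptors or pigment cells was called higher. No marker was at 0, and the part of these shifts in the 5 calls was not tested.

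The response to microbeads and the difference with age were set against each other in the same fit, and the libraries of these contrasts are separate. For 5 of the 10 genes they differed, beside 7.6% of all genes tested, 4.97% in that direction. Map1a differed by 1.15 (SE 0.27, edgeR adjusted p = 0.016), Map4 by 0.89 (SE 0.18, adjusted p = 0.00617), Clip1 by 0.85 (SE 0.21, adjusted p = 0.0146) and Map6 by 0.80 (SE 0.24, adjusted p = 0.0463) on the log2 scale. These 4 genes were called lower with age and were not called with microbeads. Clip2 was called higher in both and differed by 0.93 (SE 0.27, adjusted p = 0.0366), the larger change being that with microbeads. For Mapt the difference was 0.68 (95% interval 0.23 to 1.13, adjusted p = 0.0713) and was not called. The call of Map6 held in 9 of 25 alternative analyses and that of Clip2 in 13, while those of Map4 and Clip1 held in all 25 and that of Map1a in 24. Map6 lost the call, at 0.65 to 0.84, without any 1 of 11 libraries, which were all but aged library 3, saline library 3 and microbead library 1. Clip2 lost it, at 0.80 to 0.94, without any 1 of 8 libraries, which were young 2 and 4, aged 1 and 4, saline 1 and 3 and microbead 2 and 4. Mapt gained a call without aged library 3 (0.82), saline library 2 (0.82) or microbead library 2 (0.80), and Map1b without aged library 3 (0.68) or microbead library 1 (0.62). With all 16 libraries 4 genes were called, beside 3.73% of all genes tested, and the difference for Clip2 was 0.23.

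Other genes of the microtubule system give the setting for these values. Of the 14 tubulins, the building blocks themselves, 4 were called lower and none higher with age, with a median log2 fold change of -0.55, beside 11.4% of all genes called lower and 15.1% higher. Tubb2a (-0.93), Tubb2b (-0.93) and Tubb6 (-0.99) encode beta-tubulins, and Tubg1 (-0.99) encodes the gamma-tubulin that starts new microtubules. Reads of the beta-tubulins can be shared between near-identical copies, which makes the values of single copies uncertain. With microbeads none of the tubulins was called by edgeR or DESeq2, 6 had an unadjusted p under 0.05 in each, and their median was -0.31. Of the 14 tested enzymes that modify tubulin, Sirt2, a deacetylase, fell by 1.29 and Ttll1, a polyglutamylase, fell by 1.05 on the log2 scale with age, a share of the list near the 11.4% of all genes, and none was called with microbeads by either tool (4 at an unadjusted p under 0.05 in each).

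Of 18 kinases and phosphatases that act on lattice-binding proteins 10 were called higher and 1 lower with age, beside 15.1% and 11.4% of all genes. The median log2 fold change of the 18 was 0.65, against 0.02 over all genes tested. Gsk3b (1.07) and Gsk3a (0.89) encode the kinases that phosphorylate tau, Mark2 (0.76) encodes a kinase that releases tau and its relatives from the tube, Prkaca (0.65) the catalytic subunit of protein kinase A and Ppp2cb (1.11) a catalytic subunit of phosphatase 2A. Ppp2r2b, a regulatory subunit of the same phosphatase, fell by 0.62. With all 16 libraries 5 were called higher and 1 lower, and with the length trend removed 7 and 1. Ppp2r2b (-0.54 and -0.56) and Mark2 (0.57 and 0.47) were called in neither, and Prkaca (0.53) was not called with all 16 libraries. With microbeads Ppp2cb (0.84), Gsk3b (0.68), Brsk1 (2.27) and Cdk5r1 (1.87), the activator p35 of Cdk5, were called higher, beside 9.39% of all genes, and Gsk3b (0.30) was not with the length trend removed. With all 16 libraries none was called by edgeR, and 4 had an unadjusted p under 0.05. Brsk1 and Cdk5r1 were scarce, at 0.51 ± 0.35 and 0.84 ± 0.59 CPM (SD) in saline libraries 1 to 3. They stood at 2.53 ± 0.77 and 3.01 ± 0.72 CPM in microbead libraries and at 2.37 and 2.25 CPM in saline library 4.

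Of 35 other structural and end-binding proteins tested, 4 were called higher and 9 lower with age, the first share below the 15.1% and the second above the 11.4% of all genes. Clip3, a relative of the CLIP pair, fell by 1.11, Tppp3, which promotes tubulin polymerisation, fell by 1.20, and Map9, a lattice protein of the spindle and cilium, fell by 1.30 on the log2 scale. Pafah1b1 (1.27), which encodes the dynein regulator Lis1, Phldb1 (1.15) and Slain2 (0.73), a plus-end protein, were called higher, Slain2 neither with all 16 libraries (0.58) nor with the length trend removed (0.45). With microbeads 5 of the 35 were called higher, beside 9.39% of all genes. They were Pafah1b1 (1.07), Phldb1 (1.13), Nav2 (0.84), Tppp (0.91) and Camsap3 (0.81), which binds minus ends, and Map7d3 fell by 0.87. With the length trend removed 2 were called higher and 2 lower, and Nav2 (0.45), Tppp (0.60) and Camsap3 (0.56) lost their calls, and with all 16 libraries none of the 35 was called by edgeR (7 at an unadjusted p under 0.05). Of 11 destabilising and severing proteins tested, the stathmins Stmn2 and Stmn1 fell with age by 1.20 and 1.06 and with microbeads by 0.89 and 0.60, and Fign, the severing enzyme fidgetin, was called higher in both (1.21 and 1.20). These 3 calls with age are a share of the list near the 26.5% of all genes. The 3 calls with microbeads stand beside 12.4% of all genes. With all 16 libraries none of the 11 was called with microbeads by edgeR (5 at an unadjusted p under 0.05). The log2 fold changes were then -0.69 for Stmn2, -0.37 for Stmn1 and 0.81 for Fign. Stmn1 was not called with age in all 16 libraries (-0.71), where aged library 2 lay near the young mean of 16.1 CPM, nor with microbeads after removal of the length trend (-0.31). Stmn2 is also on the list of neuron markers.

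The genes whose pattern was most like that of each called member were found by the root mean square difference of centred log2 CPM over the 14 libraries, which is small for genes that move alike. For Map1a the nearest gene was Map4 at 0.16, followed by Inf2 at 0.17 and Safb2 at 0.18. For Map4 they were Itsn1 and Trp53bp2, both at 0.10, and Tln1 at 0.11. Among the genes nearest to Mapt were Kif1a (0.14), an axonal kinesin, and Tpm1 (0.16), and Map6 was nearest to Cend1 (0.12), Nbl1 (0.13) and Hgs (0.13). Clip1 had Cux1 (0.08), Spats2l (0.10) and Eprs (0.11), and Clasp2 had Fam46c (0.13), Dcun1d3 (0.14) and Adam22 (0.14). For Clasp1 they were Ube4b (0.07), Tacc1 (0.08), which is on the list of end-binding proteins, and 4931406P16Rik (0.08). The distance grows with a gene's own spread, which was 0.30 to 0.51 for the other called members and 1.00 for Clip2, whose nearest genes were 1700066J24Rik, Mapk8ip1 and Prrc2a, each at 0.32. These distances describe the same libraries as the comparisons above.

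In the mm10 build Map1a spans chr2:121289602-121310832, Map1b chr13:99421464-99516602, Map2 chr1:66175329-66442583, Map4 chr9:109931774-110083954 and Map6 chr7:99267447-99337137. Mapt spans chr11:104231436-104332093, Clip1 chr5:123579070-123684291, Clip2 chr5:134489386-134552434, Clasp1 chr1:118389058-118609462 and Clasp2 chr9:113741473-113919697. Map1a shares 272 exon bases with Ppip5k1 on the opposite strand, and the libraries do not record the strand, so that reads of the shared part cannot be assigned to either gene. None of the other 9 genes shares exon bases with another gene of the table.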

How the data were processed

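RNA of the optic nerve head was measured in 16 libraries of 4 groups. Per the labels and the study's methods, cDNA came from the SMARTer Ultra Low Input kit without strand information. The authors aligned reads to mm10 with STAR 2.3.0 and counted them with featureCounts, in a version not given in the sources used here. Whole, unnormalized counts per gene were deposited with exon coordinates and lengths. The deposited comparison tables hold the authors' normalized averages, folds and p-values; they were used only to see which 14 libraries the study kept. Members and lists were chosen with earlier results of these data known.

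Counts were filtered (filterByExpr), TMM-normalized and tested with edgeR 4.0.16 (limma 3.58.1, R 4.3.3; robust quasi-likelihood, 1 fit of 4 groups of 14 libraries), with Benjamini-Hochberg adjustment over all genes tested. Calls needed a 1.5-fold change, p under 0.01 and an adjusted p under 0.05. The SE is the log2 fold change divided by the root of F, intervals are 1.96 SE wide on each side, and CPM use totals scaled over all 16 libraries. The procedure was tested on simulated data.

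Alternatives were DESeq2 1.42.0, other size factors and filters, no minimum fold, only the groups compared, 1 library code, the replicate number as a block, leaving out each library in turn, and the removal of each library's loess trend (span 0.5) with gene length. Also run was that removal with all 16 libraries, chosen after seeing the data. The 10 members are named throughout, other list genes if called (up to 6 per list and comparison by smallest p), and the 3 genes most like each called member (log2 CPM, prior count 2), of which 1 is not reported here. Promoters are 250 bases upstream from RefSeq, GRCm38.p6. Precision is limited by 3 or 4 pools a group.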

Additional observations from a re-analysis of the deposited data

Results flagged for a closer look

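In 2 of 40 groups of 4 libraries 1 library stood far from the other 3 by Dixon's test at the 95% level, where chance gives about 1 in 20. Map1b reached 372.5 CPM in young library 2, against 278.5 to 286.8 CPM in the other young libraries. Clip2 reached 23.9 CPM in saline library 4, against 3.68 to 5.43 CPM in the others.

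The response to microbeads and the difference with age differed by the test of the difference itself for 5 genes, by 1.154 for Map1a, 0.8857 for Map4, 0.8514 for Clip1, 0.7984 for Map6 and 0.9309 for Clip2 on the log2 scale.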

How the results depend on the processing

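Of 1030 single-gene values under an alternative, 906 kept their direction and their side of the threshold, 60 lost a call, 27 gained one and 37 changed sign, all 37 in values that were not called. With microbeads against saline, 3 genes were called, beside 12.4% of all genes tested. With all 16 libraries 0 were called, beside 0%, with or without removal of the length trend. With that removal and the replicate block 1 was called, beside 5.76%. For saline against young naïve nerves 0 were called, beside 0.00688%. DESeq2 called 1, beside 0.294%, and 0 to 1 were called without single libraries, beside 0 to 0.608%. For the difference of responses 5 were called, beside 7.6%, and 2 with the replicate block, beside 6.66%. With the block and the length trend removed 3 were called, beside 7.15%. Without single libraries 3 to 7 were called, beside 4.56% to 9.16%. Whether the same replicate numbers pair the libraries cannot be settled from so few values. The correlation of their deviations was 0.14, -0.0028 and 0.33 for young and aged and 0.10, -0.19 and 0.21 for saline and microbead libraries. At unlike numbers it ranged from -0.434 to 0.375 and from -0.29 to 0.391. Microbead and saline nerves were handled in parallel by the study. The block left 6 genes called with age, 2 with microbeads and 5 for microbead against aged nerves, beside 26.6%, 11.5% and 10.6% of all genes.

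With microbeads against saline, the log2 fold changes after removal of the length trend were -0.33 for Map1a, -0.36 for Map1b and -0.28 for Map4. They were -0.36, -0.37 and -0.30 with the block as well, -0.22, -0.25 and -0.22 with all 16 libraries as well, and -0.13, -0.12 and -0.047 within 1 library code. Without single libraries Map1b ranged from -0.061 to 0.13 and Map6 from -0.28 to 0.035. With age, Map2 was at -0.042 with all 16 libraries and the length trend removed. Between microbead and aged nerves Map2 ranged from -0.25 to 0.0061 without single libraries.

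For saline against young naïve nerves, removal of the length trend gave 0.11 for Map1b, 0.050 for Map4 and 0.055 for Map6, and with the block 0.13, 0.068 and 0.065, with 0.014 for Map1a. With all 16 libraries as well it gave 0.0083 for Map1b, -0.037 for Clip1 and 0.83 for Clip2. Clip1 was at -0.026 and Clip2 at 0.93 with all 16 libraries, and Clip1 at -0.0013 with the block and -0.0022 with only the groups compared. Without single libraries the ranges were -0.17 to 0.021 for Map1b, -0.22 to 0.096 for Map6, -0.068 to 0.070 for Clip1 and -0.24 to 0.039 for Clip2. The causes were not tested.

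Over all genes, microbead against saline gave 1810 calls, 968 with the length trend removed, 837 with the block as well, 4372 with no minimum fold and 0 with all 16 libraries (2772 genes at an unadjusted p under 0.05, edgeR). The difference of responses gave 1105 calls, and 538 with all 16 libraries. Saline against young naïve nerves gave 1 call and 56 by DESeq2. At 3 or 4 pools a group and 22 to 300 counts, Clip2 is the gene measured with the largest counting error.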
